A study of Mus musculus with 7 samples.

Results

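Opposite-strand genes, named after a neighbouring gene with the ending os, were examined in outflow tracts (OFTs) of mouse embryos at embryonic day 11.5. They were taken by name: a row belonged to the set if its gene name ended in os, or os and a number, and if the name before that ending also stood in the table. This gave 40 of the 14732 listed genes, which carry 39 names because *Tmem147os* stands on 2 rows, and 39 partner genes. RNA came from pooled OFTs of 3 control pools (replicates 3, 4 and 5), labelled WT, and 4 Gata6STOP/+ pools (replicates 1, 3, 4 and 5). Gata6STOP/+ embryos carry a frameshift with a premature stop in 1 copy of *Gata6*, in a line that the methods trace to a selected CRISPR-Cas9 founder backcrossed to C57BL/6, and the allele is present in every cell. The methods speak of 3 pools per genotype, whereas the labels give 3 and 4.

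Many genes start transcription in both directions, and RNA is then also made from the strand opposite to a protein-coding gene. Such opposite-strand RNAs are usually low and noncoding. Some act where they are made, some are precursors of microRNAs, and for most no function is known. *Hand2os1* (also called *upperhand*) is known from heart development for lying beside *Hand2*, a transcription factor gene that the OFT and right ventricle need. *Dnm3os* is the precursor RNA of the microRNAs miR-199a and miR-214, and *Oip5os1* (*Cyrano*) holds a conserved site at which miR-7 pairs almost fully and is then degraded.

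The members' names were checked against the GENCODE M21 annotation of genome build GRCm38. All 40 lie on the strand opposite to their partner. The word noncoding held for 34, of which 26 are annotated as antisense, 4 as lincRNA, 3 as processed transcripts and 1 as a bidirectional promoter RNA. Another 5 are annotated as protein coding (*Slc7a6os*, *Wdr83os*, *Cebpzos*, *Ccpg1os* and *Brd3os*) and 1, *Abhd11os*, as a pseudogene. In 25 pairs the genes stood head to head, with start sites at most 2000 bases apart and a median distance of 144 bases. Exon bases were shared in 23 pairs, *Dnm3os* lay within an intron of *Dnm3*, and 7 members, among them *Oip5os1* and *Slc7a6os*, had none of these relations to their partner. The libraries were made with a strand-keeping kit, but the strand setting of the counting is not given in the sources used here, so that in the 23 pairs with shared exon bases reads could have been divided between the genes.

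The sequences below are those by which these members are known, or which lie at pairs that stood out in the measurements. The microRNAs of *Dnm3os* come from RefSeq (build GRCm38.p6), all lie within its exon on the plus strand of chromosome 1, and are written 5′ to 3′ with the seed, bases 2 to 8, in capitals. The miR-199a arms lie at chr1:162217844-162217866 and chr1:162217883-162217904, and the miR-214 arms at chr1:162223397-162223418 and chr1:162223438-162223459. The 4 seeds differ from each other.
mmu-miR-199a-5p: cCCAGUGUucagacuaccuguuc
mmu-miR-199a-3p: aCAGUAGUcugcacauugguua
mmu-miR-214-5p: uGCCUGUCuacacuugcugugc
mmu-miR-214-3p: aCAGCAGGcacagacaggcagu

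The miR-7 site of *Oip5os1* is shown with miR-7a-5p because it is the best known feature of this RNA. It was found in exon 3 of 3, on the plus strand at chr2:119602136-119602161, as a match to the seed followed by a run of 13 further paired bases. Capitals mark the seed of the microRNA and the bases of the site that pair with it.
mmu-miR-7a-5p: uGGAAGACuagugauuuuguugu
*Oip5os1* site: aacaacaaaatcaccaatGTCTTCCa

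Promoters are shown for the 2 members with an unadjusted *P*-value under 0.05 between genotypes (*Hand2os1* and *Map2k3os*) and the 2 with an r of at least 0.8 with their partner (*Prdm16os* and *Wt1os*), all described below and all head to head. Each runs from 250 bases before to 50 bases after the annotated start on its own strand (RefSeq, build GRCm38.p6). Since the mutated gene encodes a factor that binds GATA sequences, capitals mark the word AGATAA or the word AGATAG, and likewise the word TGATAA or the word TGATAG, on either strand. *Hand2os1* is at chr8:57320810-57321109 on the minus strand, and its start lies 124 bases from that of *Hand2*. *Map2k3os* is at chr11:60931818-60932117 on the minus strand, *Prdm16os* at chr4:154637330-154637629 on the plus strand and *Wt1os* at chr2:105126461-105126760 on the minus strand.
*Hand2os1*: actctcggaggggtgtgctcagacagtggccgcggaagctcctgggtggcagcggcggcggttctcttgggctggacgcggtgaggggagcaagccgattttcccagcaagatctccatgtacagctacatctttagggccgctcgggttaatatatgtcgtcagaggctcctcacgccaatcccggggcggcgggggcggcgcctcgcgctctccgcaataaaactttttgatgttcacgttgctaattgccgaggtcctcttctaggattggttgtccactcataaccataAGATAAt
*Map2k3os*: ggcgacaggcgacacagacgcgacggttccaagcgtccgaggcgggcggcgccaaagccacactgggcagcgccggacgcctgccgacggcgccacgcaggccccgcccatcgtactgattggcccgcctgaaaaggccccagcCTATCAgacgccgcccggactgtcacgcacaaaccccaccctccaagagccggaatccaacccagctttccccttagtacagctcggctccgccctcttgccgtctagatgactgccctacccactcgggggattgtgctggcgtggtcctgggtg
*Prdm16os*: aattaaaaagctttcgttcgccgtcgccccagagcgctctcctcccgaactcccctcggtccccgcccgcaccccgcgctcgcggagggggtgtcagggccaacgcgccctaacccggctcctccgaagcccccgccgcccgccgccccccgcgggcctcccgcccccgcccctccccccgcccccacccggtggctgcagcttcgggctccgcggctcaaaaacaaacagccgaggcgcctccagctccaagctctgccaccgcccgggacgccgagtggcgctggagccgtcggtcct
*Wt1os*: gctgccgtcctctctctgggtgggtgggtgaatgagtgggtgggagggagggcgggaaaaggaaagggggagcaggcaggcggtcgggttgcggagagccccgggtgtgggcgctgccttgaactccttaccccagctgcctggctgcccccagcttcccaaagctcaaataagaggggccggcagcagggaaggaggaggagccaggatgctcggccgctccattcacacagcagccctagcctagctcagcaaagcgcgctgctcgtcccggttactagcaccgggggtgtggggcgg

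The *Hand2os1* and *Map2k3os* windows each hold 1 of these words, and those of *Prdm16os* and *Wt1os* hold none. Both words are sites that the overlapping partner windows hold as well. The *Hand2* window holds 2 words and the *Map2k3* window 1. Promoters were found for 26 of the 39 member names. Of their 31 windows, 6 (19.4%) held a word, beside 5 of 49 partner windows (10.2%) and 29.8% of all 32851 windows of this length. A match is only a match of letters. GC-rich windows with many CpG dinucleotides made up 51.6% of the members' windows, 65.3% of the partners' and 33.5% of all.

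The pools held 17783655 to 34467710 reads on listed genes, and 1 read was worth 0.0291 to 0.0560 CPM (read counts scaled to library size, after TMM normalization). *Gata6* itself was at 315, 257 and 286 CPM in control pools 3, 4 and 5 and at 268, 203, 219 and 217 CPM in Gata6STOP/+ pools 1, 3, 4 and 5, with Gata6STOP/+ pool 1 within the range of the controls. All markers fixed for myocardium, smooth muscle, endothelium and cushion mesenchyme were listed. Of the markers for pharyngeal epithelium, *Epcam*, *Cdh1*, *Foxa2* and *Foxe1* were not. The summed level of the 4 Y-linked genes was 39.9 to 93.4 CPM in control and 70.4 to 174 CPM in Gata6STOP/+ pools. *Xist*, the RNA of the inactive X chromosome in females, was at 362 to 662 CPM in control and at 157, 539, 1.30 and 197 CPM in Gata6STOP/+ pools 1, 3, 4 and 5, so that pool 4 stood apart. No source says that the pools came from separate litters, so *P*-values measure the spread between these pools. In such bulk samples, fewer cells of a type and less RNA per cell cannot be told apart.

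Most opposite-strand genes were low. Their mean level had a median of 2.58 CPM, from 0.962 CPM for *Prox1os* to 213 CPM for *Oip5os1*, beside 40.9 CPM for the partners and 26.1 CPM for all listed genes. The 765 listed genes annotated as long noncoding had a similar median of 2.48 CPM. In the 18 genes with the ending os but no listed partner it was 20.6 CPM. A mean under 2 CPM was found for 17 members and one of at least 5 CPM for 13. In 28 members at least 1 pool held fewer than 100 reads, and the lowest value, in *Tmem147os* (ENSMUSG00000109224), stood for 11 reads. Every listed gene reached 1 CPM in at least 3 pools. Of 227 annotated opposite-strand genes with a listed partner, 38 are in the table, and the 2 other members carry another name in that annotation.

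**Figure D1:**
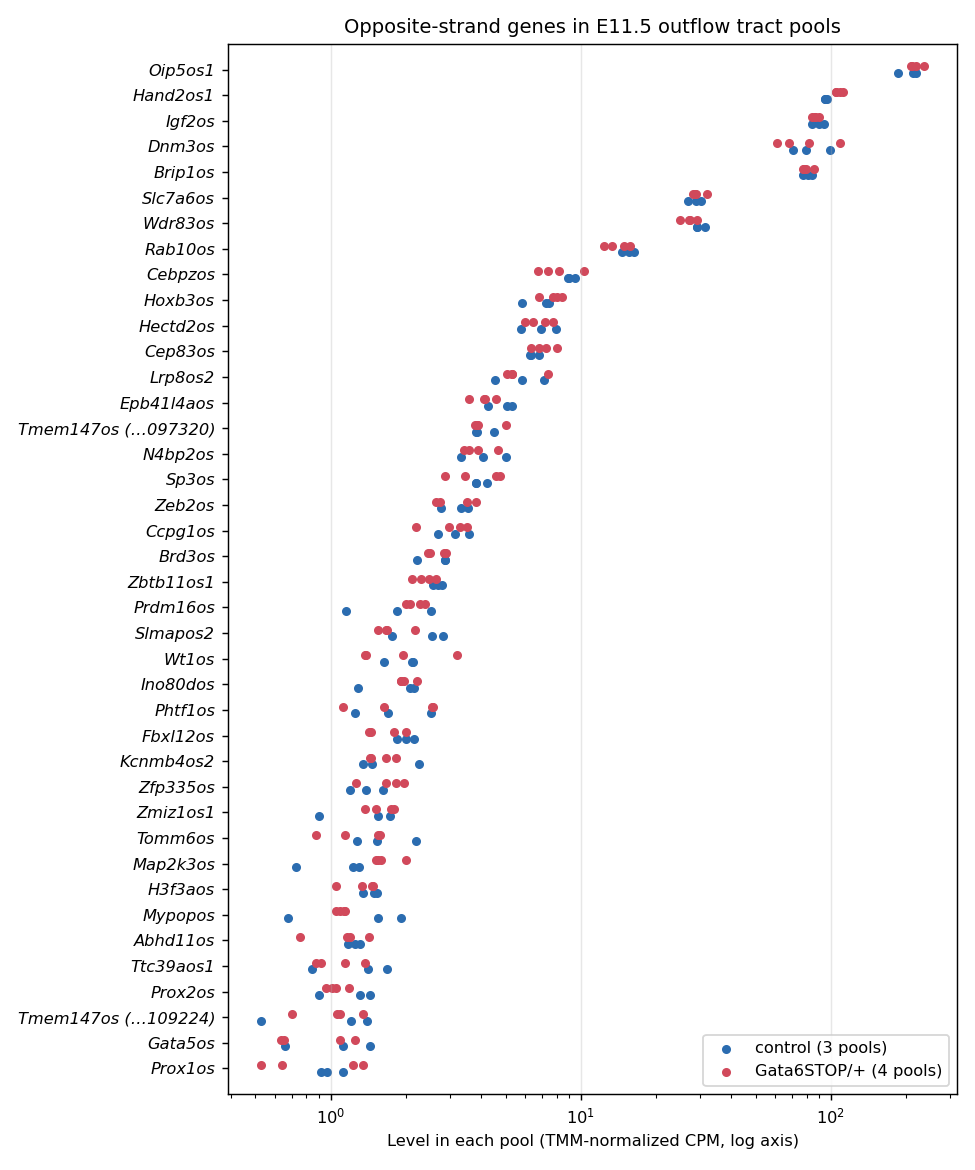
Level of each of the 40 opposite-strand genes in the 7 pools, in CPM on a log axis, sorted by mean; blue points are the 3 control pools and red points the 4 Gata6STOP/+ pools. A few members stand above 50 CPM, 17 have a mean under 2 CPM, and the colours mix in nearly all rows.

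*Oip5os1* (ENSMUSG00000085438, chr2:119594297-119607502, plus strand) was the highest member. It was at 213, 220 and 186 CPM in control pools 3, 4 and 5, and at 210, 218, 211 and 236 CPM in Gata6STOP/+ pools 1, 3, 4 and 5. Its values overlapped between genotypes, with the lowest in control pool 5 and the highest in Gata6STOP/+ pool 5. Its partner *Oip5*, a gene of centromere assembly in dividing cells, ranged from 9.88 to 13.6 CPM. *Igf2os* lies across from *Igf2*, the imprinted fetal growth factor gene, which was the highest partner at 7425 to 9436 CPM. *Igf2os* was at 93.8, 89.2 and 84.2 CPM in control and at 84.0, 86.4, 89.9 and 86.2 CPM in Gata6STOP/+ pools, a narrow band in which the genotypes overlapped.

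*Dnm3os* (ENSMUSG00000078190, chr1:162217623-162225550, plus strand) varied most among the 5 highest members. It was at 70.4, 79.7 and 99.1 CPM in control and at 108, 60.7, 81.5 and 68.2 CPM in Gata6STOP/+ pools. The highest and the lowest pool were both Gata6STOP/+. Pool 1, where it was highest, had the lowest summed level of the 7 myocardial markers, 16600 CPM beside 20084 to 23379 CPM in the other pools, and the part of this in its level was not tested. *Dnm3*, which encodes a dynamin and is best known from neurons, was at 2.35, 2.21 and 2.18 CPM in control and at 3.75, 2.57, 2.68 and 2.62 CPM in Gata6STOP/+ pools.

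*Brip1os*, head to head with the DNA repair helicase gene *Brip1*, was at 77.3, 84.2 and 81.1 CPM in control and at 79.5, 77.7, 77.0 and 85.9 CPM in Gata6STOP/+ pools. The genotypes overlapped, as they did for the protein-coding *Slc7a6os*, at 30.4, 26.8 and 28.9 CPM in control and at 28.8, 28.5, 31.9 and 28.1 CPM in Gata6STOP/+ pools. *Rab10os*, opposite the gene of a small GTPase of membrane traffic, was at 16.3, 15.5 and 14.6 CPM in control and at 13.3, 14.9, 15.7 and 12.4 CPM in Gata6STOP/+ pools. Only Gata6STOP/+ pools 1 and 5 lay below all controls. *Rab10* was at 149 to 165 CPM in control and 161 to 164 CPM in Gata6STOP/+ pools.

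Levels of different genes were compared per kb of merged exons. By this measure 33 members were below their partner and 7 above it, and the partner's level was a median of 4.98 times the member's. *Dnm3os* was 95.3 times as high as *Dnm3* per kb, with 10.2 against 0.107 CPM per kb. This ratio depends on the merged exon lengths, 7928 bases for *Dnm3os* and 24452 for *Dnm3*. Before division by length the means were 81.1 and 2.62 CPM. The 6 others above their partner were *Epb41l4aos* (8.97 times), *Brip1os* (7.37 times), *Oip5os1* (3.89 times), the protein-coding *Wdr83os* (3.87 times), *Lrp8os2* (3.48 times) and *Prox2os* (2.50 times). All 7 were above their partner in each of the 7 pools. At the other end, *H3f3a*, a gene for the replacement histone H3.3, was 331 times as high as *H3f3aos* per kb.

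**Figure D2:**
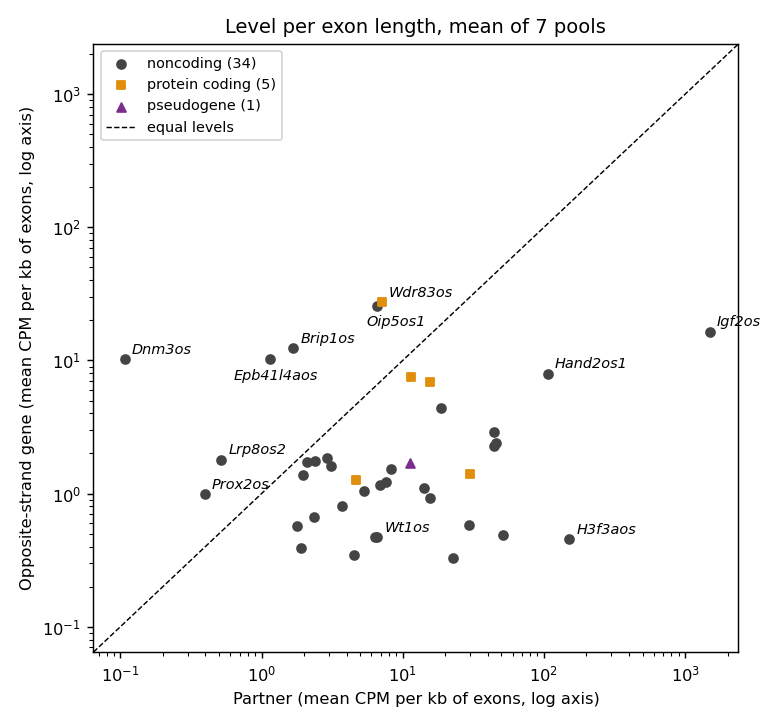
Mean level over 7 pools in CPM per kb of exons, on log axes, of each opposite-strand gene (vertical) and its partner (horizontal); circles are noncoding members, squares protein-coding ones and the triangle a pseudogene, and the dashed line marks equal levels. Of the 40 points, 7 lie above the line, *Dnm3os* farthest from it, and 33 below.

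Between genotypes, none of the 40 members and none of the 39 partners passed the threshold of an adjusted *P*-value under 0.05 (limma on log2(CPM + 0.5), two-sided, Benjamini-Hochberg over all 14732 genes), and percent called over all genes was 0%. With edgeR's quasi-likelihood test the counts were also 0. Other tests did call genes: edgeR's likelihood ratio test called 105 of all listed genes and DESeq2 called 88. No member and no partner was among these. At an unadjusted *P*-value under 0.05 stood 2 members, *Hand2os1* and *Map2k3os*, and 1 partner, *Kcnmb4*, beside 8.06% of all genes. Of the 40 members, 14 were higher and 26 lower in Gata6STOP/+ pools, with a median log2 fold change of -0.04. Of the partners, 27 were higher and 12 lower, with a median of 0.06. Among all listed genes 7339 were higher and 7393 lower, with a median of -0.00073. Of the 765 annotated as long noncoding, 362 were higher and 403 lower. These directions were not tested. The member and its partner had the same sign in 15 of 40 pairs. In 3 members (7.5%) and 4 partners (10.3%) the pools of the genotypes did not overlap, beside 8.47% of all genes. The shares without overlap are near the background.

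**Figure D3:**
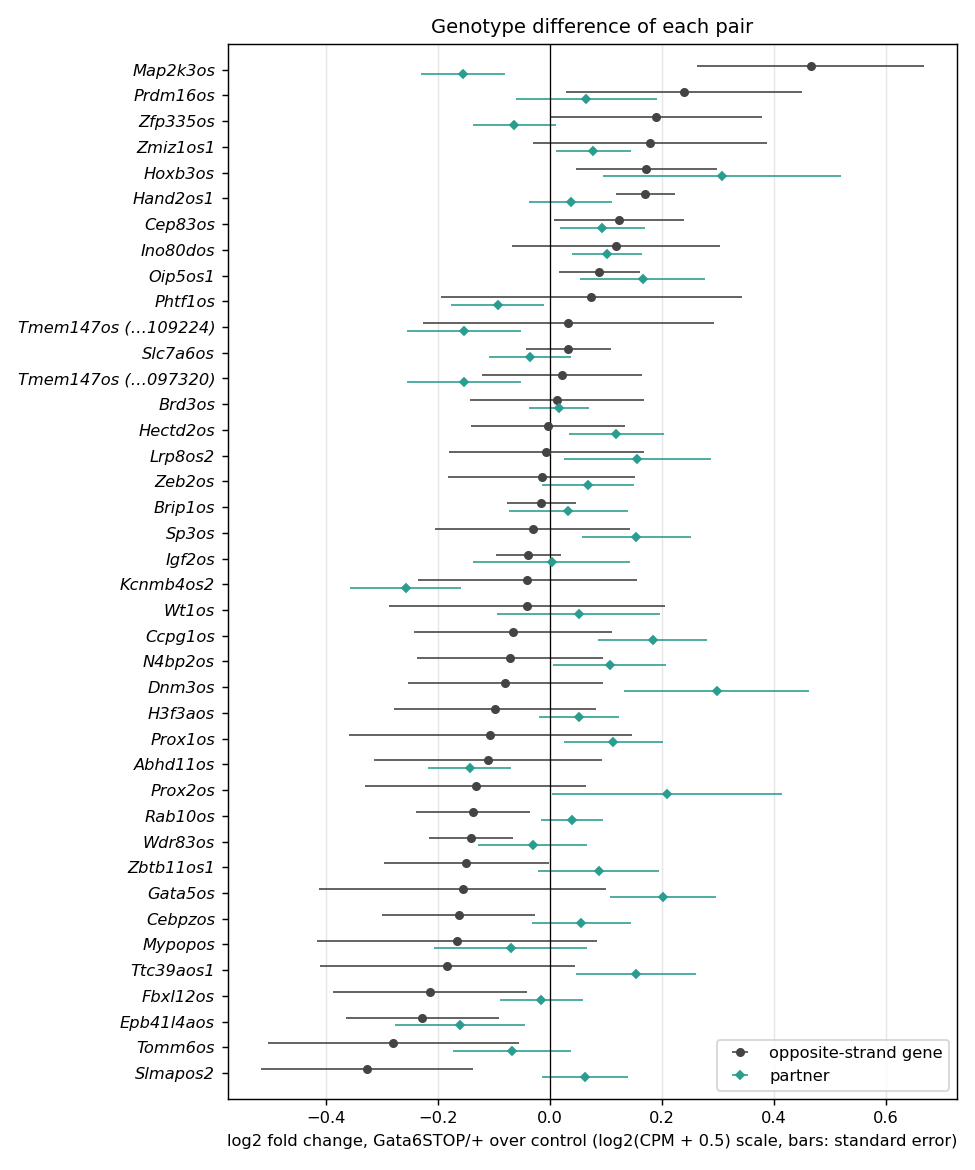
Log2 fold change, Gata6STOP/+ over control on the log2(CPM + 0.5) scale, of each opposite-strand gene (circles) and its partner (diamonds), with bars of 1 standard error, sorted by the opposite-strand gene. *Map2k3os* has the highest value at 0.47, *Slmapos2* the lowest at -0.33, and no gene shown passed the adjusted threshold.

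*Hand2os1* (ENSMUSG00000100510, chr8:57281117-57324233, minus strand) had the smallest unadjusted *P*-value of the members. It was at 95.0, 95.0 and 96.3 CPM in control pools 3, 4 and 5 and at 105, 112, 109 and 105 CPM in Gata6STOP/+ pools 1, 3, 4 and 5. Every Gata6STOP/+ pool lay above every control pool. The means were 95.4 ± 0.756 CPM (s.d., n=3) and 107 ± 3.44 CPM (s.d., n=4), a log2 fold change of 0.17 ± 0.05 (s.e., limma, adjusted *P*-value=0.42). It therefore did not pass the test. The neural crest and glia markers, 4 of 5 listed with *Foxd3* not listed, moved the other way, with a summed level of 80.7 to 117 CPM in control and 69.3 to 80.9 CPM in Gata6STOP/+ pools, and their part in this was not tested.

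*Hand2* did not show this separation. It was at 269, 223 and 250 CPM in control and at 269, 246, 259 and 238 CPM in Gata6STOP/+ pools. The lowest and nearly the highest value were both from controls. Its log2 fold change came to 0.04 ± 0.07 (s.e., limma, adjusted *P*-value=0.927), and the direction turned when control pool 4 was left out (-0.04). The log2 ratio of *Hand2os1* to *Hand2* differed by 0.13 between genotypes (exact permutation test over all splits of the pools, two-sided, *P*-value=0.229, where 0.0571 is the smallest possible). The 2 genes share 461 exon bases, which are 19.6% of the exon bases of *Hand2*.

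*Map2k3os* (ENSMUSG00000042549, chr11:60920917-60931867, minus strand) lies head to head with *Map2k3*, which encodes a kinase that activates p38. It was at 1.29, 0.725 and 1.23 CPM in control and at 1.54, 1.52, 1.59 and 2.01 CPM in Gata6STOP/+ pools, or 21 to 69 reads. All Gata6STOP/+ pools lay above all controls, with control pool 4 apart at the low end and Gata6STOP/+ pool 5 at the high end. The log2 fold change came to 0.47 ± 0.20 (s.e., limma, adjusted *P*-value=0.598). Without control pool 4 it was 0.29. The summed Y-linked level given above also tended to be higher in the Gata6STOP/+ pools and was lowest in control pool 4, and its part in this was not tested.

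*Map2k3* was at 46.8, 49.8 and 51.6 CPM in control and at 43.0, 43.5, 41.4 and 49.6 CPM in Gata6STOP/+ pools, with Gata6STOP/+ pool 5 among the controls. Its log2 fold change came to -0.16 ± 0.07 (s.e., limma, adjusted *P*-value=0.648). The ratio of member to partner did not overlap between genotypes in 2 of 40 pairs, beside 7.04% when each member was set against every other listed gene. For *Map2k3os* the log2 ratio was higher by 0.62 in Gata6STOP/+ pools. For *Fbxl12os*, opposite a gene for a subunit of a ubiquitin ligase and named after its values were seen, it was lower by 0.20 (log2 ratio difference of -0.20). Both had the smallest possible *P*-value of 0.0571 (exact permutation test), so that the design could not pass 0.05.

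*Wdr83os* (ENSMUSG00000059355) is a protein-coding member whose start lies 6 bases from that of *Wdr83*, and the genes share 539 exon bases. It was at 29.2, 31.3 and 29.2 CPM in control and at 24.8, 29.1, 27.2 and 27.3 CPM in Gata6STOP/+ pools. All Gata6STOP/+ pools lay below all controls, though pool 3 by little. The log2 fold change came to -0.14 ± 0.07 (s.e., limma, adjusted *P*-value=0.681). *Wdr83* overlapped between genotypes, at 19.0 to 21.1 CPM in control and 17.1 to 22.2 CPM in Gata6STOP/+ pools. The Y-linked sum was also highest in the Gata6STOP/+ pools 1, 4 and 5, where *Wdr83os* was lowest, and its part in this was not tested.

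The 4 partners without overlap, named after their values were seen, were *Dnm3* and *Ino80d*, a chromatin remodeller subunit, on the higher side, and *Abhd11* and *Kcnmb4*, a potassium channel subunit, on the lower side. Their log2 fold changes were 0.30, 0.10, -0.14 and -0.26, and the adjusted *P*-values from limma were 0.699, 0.736, 0.673 and 0.534. Without Gata6STOP/+ pool 1, the log2 fold change of *Dnm3* was 0.19. Their opposite-strand genes overlapped between genotypes. *Kcnmb4os2*, for example, was at 1.35 to 2.25 CPM in control and 1.44 to 1.83 CPM in Gata6STOP/+ pools.

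Among members beside transcription factor genes, those of the families Hand, Gata, Hox, Wt1 and Zeb were grouped (*Hand2os1*, *Gata5os*, *Hoxb3os*, *Wt1os* and *Zeb2os*). Others, such as *Prox1os* and *Prdm16os*, were not in these families. *Gata5os*, across from *Gata5*, a relative of *Gata6* expressed in endocardium, was at 1.44, 0.656 and 1.12 CPM in control and at 0.631, 1.09, 0.651 and 1.25 CPM in Gata6STOP/+ pools, 16 to 43 reads, with full overlap. *Gata5* was at 81.2 to 104 CPM in control and 94.6 to 111 CPM in Gata6STOP/+ pools. *Hoxb3os*, which shares 2250 of its 4201 exon bases with the anterior-posterior patterning gene *Hoxb3*, was at 7.29, 5.80 and 7.45 CPM in control and at 8.03, 6.81, 8.42 and 7.73 CPM in Gata6STOP/+ pools. Gata6STOP/+ pool 3 fell among the controls, as it did for the Y-linked sum (70.4 CPM), which was likewise lowest in control pool 4 and highest in Gata6STOP/+ pool 4, and the part of this in the level of *Hoxb3os* was not tested. *Zeb2os*, across from a repressor gene of mesenchymal transition, ranged from 2.64 to 3.82 CPM with overlap.

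Whether pools with more of the partner also held more of the opposite-strand RNA was asked with Pearson's r over the 7 pools on log2(CPM + 0.5). It was positive in 22 pairs and negative in 18, with a median of 0.18 and a range from -0.76 to 0.92. An r of at least 0.8 was reached by 2 pairs (*Prdm16os* and *Wt1os*), beside 1.8% of all 589240 relations of a member to another listed gene, and an r of -0.8 or lower by 0 pairs, beside 1.79%. No relation of a member to its partner passed after adjustment over all relations (smallest adjusted *P*-value=0.807, exact permutation test). The smallest exact permutation *P*-value that 7 pools allow for r is 0.000397, so no pair could pass this adjustment on its own. Before adjustment 4 pairs lay under 0.05, beside 5.76% of all relations. The partner was never the gene with the highest r.

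**Figure D4:**
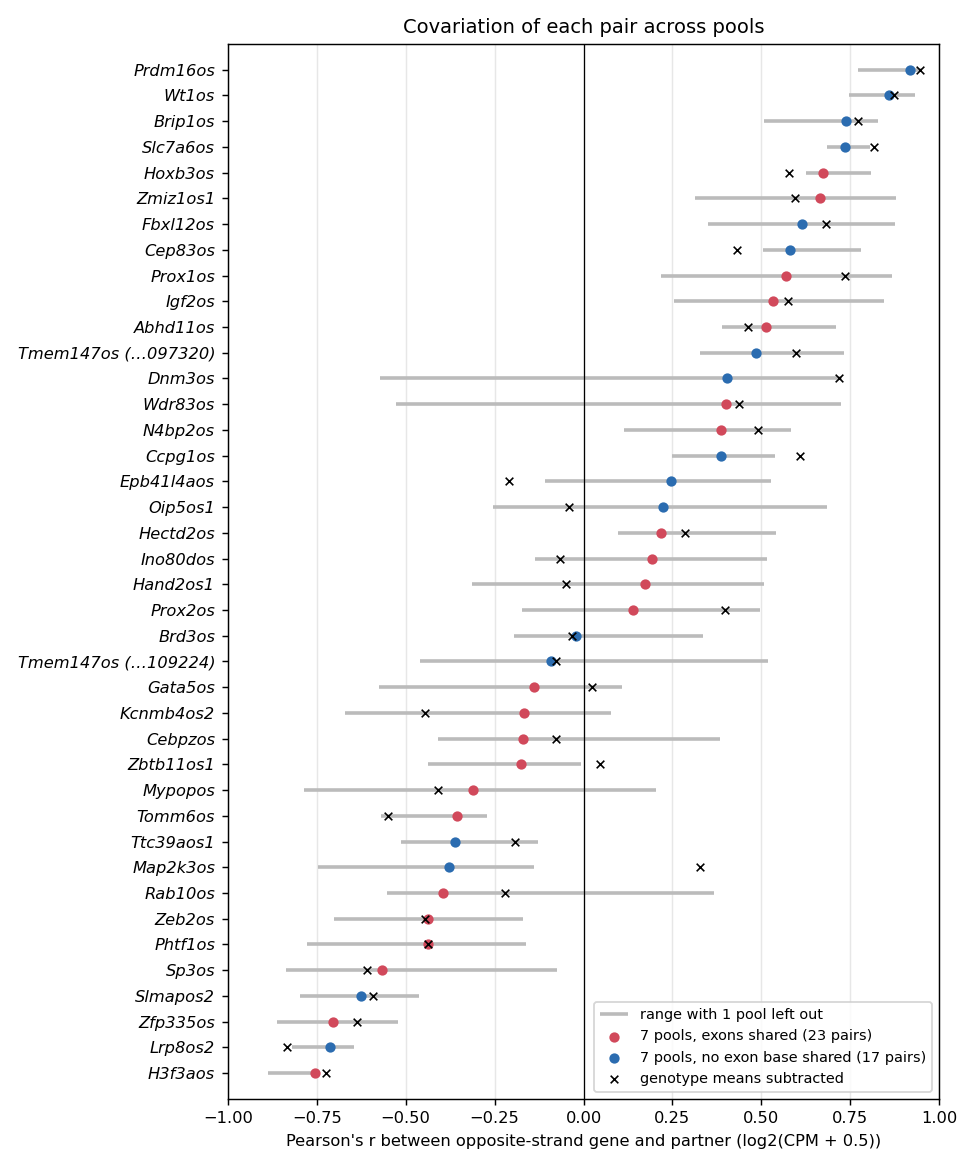
Pearson's r over 7 pools between each opposite-strand gene and its partner, sorted; red points are the 23 pairs with shared exon bases and blue points the 17 without, grey bars span the values with 1 pool left out, and crosses mark r after genotype means were subtracted. Values run from -0.76 (*H3f3aos*) to 0.92 (*Prdm16os*), and the bars of many pairs cross 0.

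*Prdm16os* (ENSMUSG00000085069, chr4:154637576-154644724, plus strand) and *Prdm16*, a regulator gene of heart muscle growth and brown fat, had the highest r. *Prdm16os* was at 1.15, 2.52 and 1.85 CPM in control and at 2.28, 1.99, 2.07 and 2.38 CPM in Gata6STOP/+ pools, while *Prdm16* was at 13.0, 18.9 and 16.7 CPM and at 18.6, 15.2, 15.9 and 17.8 CPM. Both were lowest in control pool 3 and highest in control pool 4. Pearson's r was 0.92 (exact permutation *P*-value=0.00655) and Spearman's rho 0.86 (exact permutation *P*-value=0.0238), and *Prdm16* ranked 77 among all genes. Without control pools 3 and 4, the farthest from the median, r was 0.66. With genotype means subtracted it was 0.94. Control pool 3 also had the highest neural crest and glia sum, 117 CPM beside 69.3 to 89.6 CPM, and its part in this was not tested.

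*Wt1os* (ENSMUSG00000074987, chr2:105076538-105126510, minus strand) starts 19 bases from *Wt1*, a transcription factor gene of the epicardium. *Wt1os* was at 1.63, 2.10 and 2.13 CPM in control and at 1.37, 3.19, 1.38 and 1.95 CPM in Gata6STOP/+ pools, and *Wt1* at 37.4, 37.7 and 44.0 CPM and at 35.8, 51.5, 32.5 and 47.4 CPM. Gata6STOP/+ pool 3 was the highest for both, and pools 1 and 4 were the lowest for both. Pearson's r was 0.86 (exact permutation *P*-value=0.0117) and Spearman's rho 0.86 (exact permutation *P*-value=0.0238), with *Wt1* at rank 122. It was 0.74 without Gata6STOP/+ pools 1 and 3. The epicardial list, of which 5 of 5 genes including *Wt1* were listed, summed to 321 to 379 CPM in control and 281 to 395 CPM in Gata6STOP/+ pools, with 379 CPM in pool 3. The macrophage list, 5 of 5 listed, summed to 41.9 to 53.4 CPM in control and 31.9 to 71.7 CPM in Gata6STOP/+ pools and was highest in Gata6STOP/+ pool 3, like both genes. The part of these lists in the relation was not tested. These pairs rest on 24 to 88 reads of the opposite-strand gene, and neither shares an exon base with its partner.

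**Figure D5:**
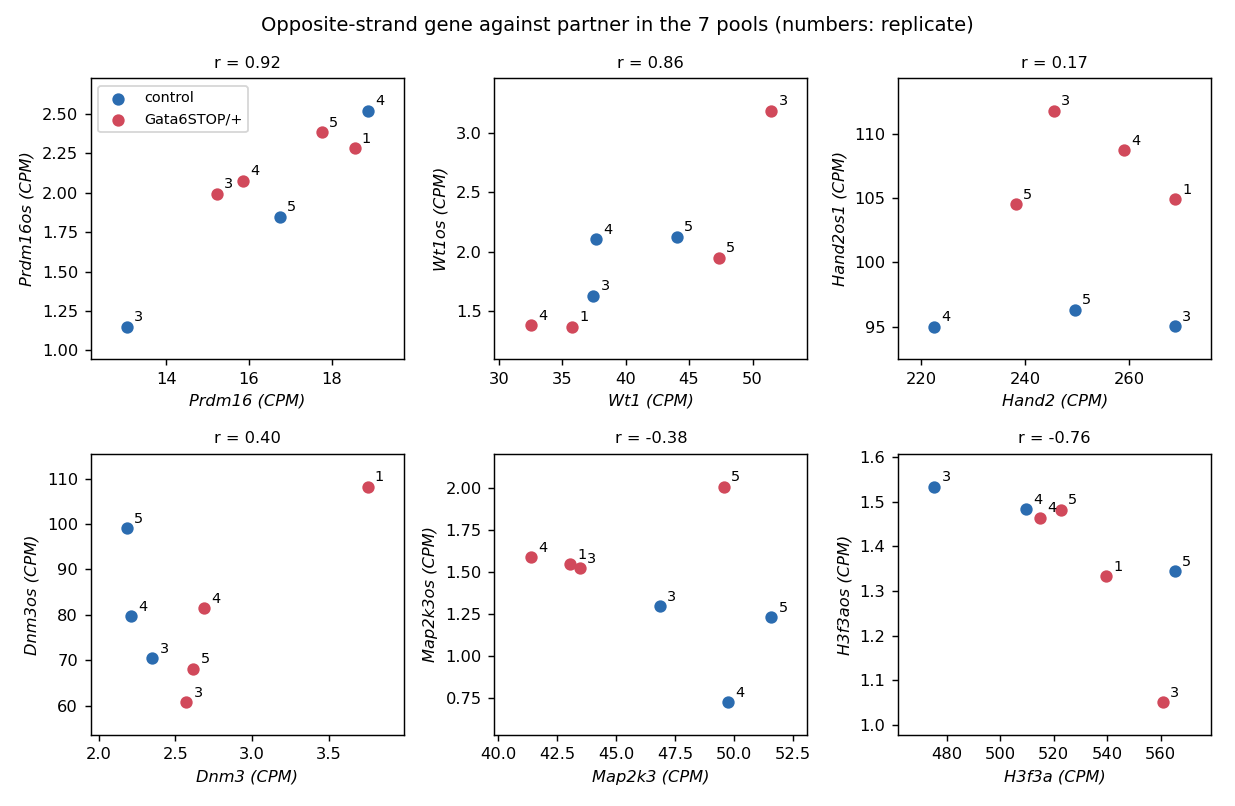
Level in CPM of 6 opposite-strand genes (vertical) against their partner (horizontal) in each pool, control in blue and Gata6STOP/+ in red, with the replicate number beside each point. *Prdm16os* and *Wt1os* rise with their partner (r = 0.92 and 0.86), *H3f3aos* falls (r = -0.76), and in the panels of *Hand2os1* and *Map2k3os* the red points lie above all blue ones.

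Next in order were *Brip1os* (r = 0.74), *Slc7a6os* (r = 0.74), *Hoxb3os* (r = 0.67) and *Zmiz1os1* (r = 0.66). *Slc7a6os* and the amino acid transporter gene *Slc7a6* face each other with their ends, and their nearest starts lie 32574 bases apart. *Slc7a6os* holds 516 to 967 reads per pool and had the steadiest of these values, 0.68 to 0.81 with any 1 pool left out. *Slc7a6* was at 67.0 to 76.5 CPM in control and 65.2 to 75.0 CPM in Gata6STOP/+ pools. *Brip1os* fell to 0.14 without control pool 4 and Gata6STOP/+ pool 5, so its relation rests on these pools. *Zmiz1os1*, across from a transcriptional co-regulator gene, was at 1.73, 1.55 and 0.896 CPM in control and at 1.37, 1.52, 1.79 and 1.74 CPM in Gata6STOP/+ pools, with *Zmiz1* at 260 to 306 CPM. Its lowest value was in control pool 5, and r was 0.31 without this pool and 0.27 without it and Gata6STOP/+ pool 4.

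The lowest r was that of *H3f3aos*. It was at 1.53, 1.48 and 1.34 CPM in control and at 1.33, 1.05, 1.46 and 1.48 CPM in Gata6STOP/+ pools, while *H3f3a* was at 475, 510 and 565 CPM and at 540, 561, 515 and 523 CPM. Control pool 3 had the most of the opposite-strand RNA and the least of the partner. Pearson's r was -0.76 (exact permutation *P*-value=0.045), Spearman's rho was -0.86 (exact permutation *P*-value=0.0238), and r was -0.95 without Gata6STOP/+ pools 1 and 3. These are 24 to 51 reads per pool. *Lrp8os2*, across from the gene of a reelin receptor, followed with -0.71. It was at 7.14, 5.80 and 4.54 CPM in control and at 5.05, 7.43, 5.29 and 5.32 CPM in Gata6STOP/+ pools, and *Lrp8* at 4.22 to 5.90 CPM. Its highest values were in the pools numbered 3 of both genotypes, where *Lrp8* was lowest, and without these r was 0.23, so that the relation rests on them.

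The other low values were those of *Zfp335os* (-0.71), *Slmapos2* (-0.63), *Sp3os* (-0.57) and *Phtf1os* (-0.44). *Sp3os* was at -0.08 without Gata6STOP/+ pool 1, and *Phtf1os* at -0.16 without Gata6STOP/+ pool 3, at -0.21 without Gata6STOP/+ pool 1 and at -0.78 without control pool 5, so that single pools set the size of both. *Zfp335os* ranged from -0.86 to -0.52 and *Slmapos2* from -0.80 to -0.46 with any 1 pool left out. *Zfp335os*, across from a zinc finger gene, was at 1.199, 1.38 and 1.62 CPM in control and at 1.82, 1.96, 1.26 and 1.66 CPM in Gata6STOP/+ pools, with *Zfp335* at 33.2 to 39.7 CPM. *Slmapos2*, whose partner encodes a membrane protein of muscle cells, was at 2.54, 1.76 and 2.80 CPM and at 2.17, 1.67, 1.55 and 1.69 CPM, with *Slmap* at 111 to 140 CPM. Control pools 3 and 5 had the most *Slmapos2*, while Gata6STOP/+ pool 1 lay between the controls. *Sp3os*, across from the transcription factor gene *Sp3*, was at 4.22, 3.80 and 3.81 CPM and at 2.88, 3.44, 4.60 and 4.74 CPM, with *Sp3* at 75.3 to 110 CPM. *Phtf1os* was at 1.25, 1.69 and 2.52 CPM and at 1.12, 2.54, 1.63 and 2.56 CPM, with *Phtf1* at 39.7 to 51.0 CPM. The controls of both lay within the range of the Gata6STOP/+ pools.

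*Dnm3os* and *Dnm3* had an r of 0.40, which was -0.57 without Gata6STOP/+ pool 1, so that this pool set its direction. *Hand2os1* and *Hand2* had an r of 0.17 and *Igf2os* and *Igf2* of 0.53, with ranges of -0.31 to 0.51 and 0.26 to 0.84 with any 1 pool left out. The 23 pairs with shared exon bases had a median r of -0.14 and the 17 without one of 0.39. The 12 pairs whose member held at least 100 reads in every pool had a median of 0.40, with 10 positive, and the 28 others one of -0.12, with 12 positive. Head-to-head pairs had a median of 0.17 and the 15 others one of 0.22. These medians are descriptions, since the pairs share the same 7 pools.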

How the data were processed

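RNA-seq was measured in 7 pools of OFTs (3 control, 4 Gata6STOP/+). The submitters' processing notes name CASAVA, bcl2fastq, cutadapt, RSEM and edgeR and the build GRCm38. The authors deposited CPM after TMM normalization, for genes kept by a minimum level, with 1 column per pool. Dividing by the value of 1 read gave whole reads for 100% of values (tolerance 0.01 reads). 14723 of 14732 identifiers were found in GENCODE M21.

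Genotypes were compared with limma 3.58.1 (R 4.3.3, mean-variance trend) on log2(CPM + 0.5) over all genes, without covariates. Fold changes of low genes are understated on this scale. Ratios and correlations were tested with exact permutation tests. The fits were tested on simulated data. Alternatives were constants of 0.1 and 2, a mean of at least 5 CPM, a replicate block, scaling by medians of ratios, edgeR 4.0.16 and DESeq2 1.42.0 on recovered reads, genotype means subtracted, Spearman's rho and leaving out each pool. Members and lists were chosen with earlier results of these data known. Named members are those at an unadjusted *P*-value under 0.05, without overlap, the 8 highest, the 6 highest and 6 lowest r, and those beside chosen transcription factor families. Others were named after their values were seen. Promoter and microRNA sequences are RefSeq's.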

Additional observations from a re-analysis of the deposited data

Results flagged for a closer look

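In 6 of 79 groups of 4 Gata6STOP/+ pools (7.59%), for members and partners, 1 pool stood far from the other 3, measured as its gap to the nearest pool over the range of the group. Chance gives about 1 in 20. *Lrp8os2* was at 7.43 CPM in pool 3, beside 5.05 to 5.32 CPM in the other Gata6STOP/+ pools and 4.54 to 7.14 CPM in control. In the same pool its partner *Lrp8* was at 5.18 CPM, beside 5.82 to 5.90 CPM. *Map2k3os* was at 2.01 CPM in pool 5, beside 1.52 to 1.59 CPM, and *Zmiz1* was at 283 CPM in pool 3, beside 292 to 293 CPM. *Tmem147os* (ENSMUSG00000097320) was at 5.003 CPM in pool 4, beside 3.79 to 3.87 CPM in the other Gata6STOP/+ pools and 3.81 to 4.49 CPM in control. *Dnm3* was at 3.75 CPM in pool 1, beside 2.57 to 2.68 CPM in the other Gata6STOP/+ pools and 2.18 to 2.35 CPM in control, and *Dnm3os* was also highest in this pool.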

How the results depend on the processing

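No member and no partner passed the adjusted threshold under any alternative. Among all listed genes, where limma called 0 (1187 at an unadjusted *P*-value under 0.05) and edgeR's quasi-likelihood test 0 (1177), a constant of 0.1 called 1, edgeR's likelihood ratio test 105 and DESeq2 88. With 1 pool left out the count was 0 to 13, the highest without control replicate 4. No sign was seen that the replicate numbers pair the pools, though so few pools cannot exclude it. After each gene's genotype mean was subtracted, the remaining log2 values of same-numbered pools had correlations of -0.0084, -0.12 and -0.0016. On these values no control pool correlated best with its own number. With the replicate block the counts were 14 with limma and 118 with the likelihood ratio test. For *Hand2os1*, the adjusted *P*-value ranged from 0.251 to 0.669 and the log2 fold change from 0.15 to 0.18. For *Map2k3os*, these ranges were 0.549 to 0.917 and 0.25 to 0.68. *Hand2* reversed to -0.036 without control replicate 4, in a range of -0.036 to 0.10.

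Without overlap were 4 to 9 members and 4 to 8 partners with 1 pool left out (most members without control replicate 5, most partners without control replicate 3 or 4), which follows from fewer pools. The ratio did not overlap in 2 pairs: 1 with a constant of 0.1 (*Map2k3os*), 0 among genes of at least 5 CPM, to which neither belongs, and 2 to 8 with 1 pool left out (most without control replicate 4 or 5). Pairs at an r of at least 0.8 were 0 among genes of at least 5 CPM, for the same reason, and 2 to 4 with 1 pool left out (most without Gata6STOP/+ replicate 5). With genotype means subtracted, *Slc7a6os* also reached this size, at 0.82. *Prdm16os* was at 0.77 without control replicate 3 and *Wt1os* at 0.75 without Gata6STOP/+ replicate 3. Pairs at -0.8 or lower were 1 with genotype means subtracted (*Lrp8os2*, -0.83), 1 with Spearman's rho (*H3f3aos*, -0.86) and 0 to 2 with 1 pool left out (most without control replicate 5 or Gata6STOP/+ replicate 3). Few reads limit most members: 28 had fewer than 100 in some pool.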
